A study of Mus musculus with 6 samples.

Results

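Broad accessible regions are stretches of open chromatin of at least 3000 bp, and here they were all peaks of the deposited peak table whose width, from the first to the last base, reached that length. There were 706 such regions among 36097 peaks. The rule used the width alone and no count, although the widths came from the authors' peak calls on these same libraries of both groups. The assay was ATAC-seq, where a transposase enters accessible DNA and leaves sequencing adapters there, and the nuclei had been sorted for PCM1, a protein at the surface of muscle fibre nuclei. The mice were male C57BL/6J, 8 weeks old when treated, and each replicate pooled 4 gastrocnemius and 4 tibialis anterior (TA) muscles. Muscles of one side received the vector AAV6:Yap-shRNA, whose short hairpin RNA is directed against Yap, a coactivator of the Hippo pathway, and the contralateral muscles received AAV6:LacZ-shRNA, directed against a bacterial gene, with tissue taken at 28 days. The pools of both groups may therefore share mice, but the labels do not tie replicate numbers to animals. Both groups therefore carried AAV6 and a hairpin, with 3 replicates in each. The text of the series speaks of cardiomyocytes, whereas every sample label names skeletal muscle. Of 10 muscle fibre marker genes, 8 had a peak and 7 of these held a broad region, against 4.46% of all protein-coding genes with a peak.

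Most open chromatin lies in short stretches, a nucleosome-free core at a promoter or enhancer where transcription factors bind. Broad stretches arise where many such elements stand side by side or where a gene is transcribed very actively, and in differentiated tissues they are known to mark genes of cell identity. Read pile-ups over repeated sequence, ribosomal DNA or copies of mitochondrial DNA in the nuclear genome can also appear as broad regions, since reads of many copies map to the same place.

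The sequences that follow show the range of what the broad regions hold. The 4 runs from gene starts are the 250 bases before the RefSeq start of genes of contraction, glycolysis and calcium storage that lie inside broad regions, read on the gene's strand. The 4 others are the central 300 bases of broad regions, read on the plus strand: the intergenic region higher in Yap-shRNA, the region past the 3′ end of Arrdc2 that was lower, the region past the 3′ end of the fast myosin gene Myh4, and a repeat-masked region that was lower. All are from the RefSeq tables or genome of build GRCm38.p6. Capitals mark exact matches on either strand to any of 12 short motifs, of which those found here are ACATTCC for TEAD factors, TGANTCA for AP-1, TANNNATAG for MEF2, CAGCTG for E-box factors such as MyoD, ACANNNTGT for steroid receptors, CCGGAAGT for ETS factors and GGGCGG for SP and KLF factors. In the runs shown, no match overlapped another.
Acta1, chr8:123894776-123895025, minus strand: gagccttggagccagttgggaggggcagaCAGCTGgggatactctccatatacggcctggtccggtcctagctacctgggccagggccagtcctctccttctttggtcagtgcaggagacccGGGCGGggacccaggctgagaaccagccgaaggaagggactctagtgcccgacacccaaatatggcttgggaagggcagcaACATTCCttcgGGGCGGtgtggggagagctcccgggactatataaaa
Pgam2, chr11:5803797-5804046, minus strand: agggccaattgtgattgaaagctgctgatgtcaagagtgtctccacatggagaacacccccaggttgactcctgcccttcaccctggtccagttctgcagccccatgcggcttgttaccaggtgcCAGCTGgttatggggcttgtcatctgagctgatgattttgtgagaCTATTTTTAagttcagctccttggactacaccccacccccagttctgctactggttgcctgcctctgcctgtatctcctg
Eno3, chr11:70656926-70657175, plus strand: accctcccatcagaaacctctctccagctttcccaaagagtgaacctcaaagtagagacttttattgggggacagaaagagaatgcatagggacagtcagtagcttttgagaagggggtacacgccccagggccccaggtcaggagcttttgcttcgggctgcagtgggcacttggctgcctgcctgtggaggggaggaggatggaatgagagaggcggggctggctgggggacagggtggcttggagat
Casq1, chr1:172219896-172220145, minus strand: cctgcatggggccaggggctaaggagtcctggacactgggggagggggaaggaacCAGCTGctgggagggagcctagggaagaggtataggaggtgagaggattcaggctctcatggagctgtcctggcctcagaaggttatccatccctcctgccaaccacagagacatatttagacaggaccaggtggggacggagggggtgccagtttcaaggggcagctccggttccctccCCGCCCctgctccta
Intergenic region of chromosome 2, chr2:181144390-181144689: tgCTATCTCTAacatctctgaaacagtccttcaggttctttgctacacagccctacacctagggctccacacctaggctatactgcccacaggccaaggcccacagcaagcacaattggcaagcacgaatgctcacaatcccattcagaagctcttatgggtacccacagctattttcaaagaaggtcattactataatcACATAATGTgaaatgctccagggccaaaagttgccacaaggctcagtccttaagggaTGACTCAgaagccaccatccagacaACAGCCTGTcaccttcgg
Region at Arrdc2, chr8:70833033-70833332: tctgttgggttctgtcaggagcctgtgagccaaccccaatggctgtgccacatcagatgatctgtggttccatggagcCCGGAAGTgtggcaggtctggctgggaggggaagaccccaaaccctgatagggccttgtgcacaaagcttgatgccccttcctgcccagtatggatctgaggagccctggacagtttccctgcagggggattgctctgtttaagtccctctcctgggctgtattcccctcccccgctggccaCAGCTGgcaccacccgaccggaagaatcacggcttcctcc
Region at Myh4, chr11:67261229-67261528: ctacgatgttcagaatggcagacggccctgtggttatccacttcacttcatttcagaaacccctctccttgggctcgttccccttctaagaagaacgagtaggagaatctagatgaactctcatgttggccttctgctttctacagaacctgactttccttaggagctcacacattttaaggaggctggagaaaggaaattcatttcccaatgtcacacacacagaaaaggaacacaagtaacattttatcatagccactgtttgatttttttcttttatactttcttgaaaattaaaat
Repeat region of chromosome 10, chr10:56252146-56252445: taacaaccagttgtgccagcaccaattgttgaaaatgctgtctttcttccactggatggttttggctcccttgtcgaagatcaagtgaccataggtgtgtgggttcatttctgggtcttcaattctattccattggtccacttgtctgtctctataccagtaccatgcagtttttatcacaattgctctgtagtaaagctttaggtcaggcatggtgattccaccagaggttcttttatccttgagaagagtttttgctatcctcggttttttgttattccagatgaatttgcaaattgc
The run before Acta1, the gene of skeletal muscle actin, held 1 TEAD match, 1 E-box match and 2 matches for SP and KLF factors. The runs before Pgam2 and Casq1 each held 1 E-box match, with 1 MEF2 match more in Pgam2 and 1 match for SP and KLF factors more in Casq1, and the run before Eno3 held none of the motifs. The centre of the intergenic region held 2 steroid receptor matches, 1 AP-1 match and 1 MEF2 match. An E-box match and an ETS match stood in the centre of the Arrdc2 region, and no motif was found in the centres of the Myh4 region and the repeat region. Such matches were not rare elsewhere. Among the 250-base runs before all 32851 RefSeq starts, 3.25% held the TEAD letters, 13.0% the E-box, 6.31% the MEF2 letters and 32.7% those of SP and KLF factors. At the 11325 starts in any peak these shares were 2.08%, 11.6%, 3.67% and 63.1%, and at the 426 in broad regions 2.82%, 14.8%, 6.34% and 60.6%. In the central 300 bases of the 35982 peaks on assembled chromosomes, 5.20% held the AP-1 letters, 8.40% the steroid receptor letters and 2.06% the ETS letters, against 7.72%, 8.01% and 1.34% of the 674 broad ones.

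The broad regions ran from 3000 to 8848 bp in width, with a median of 3668.5 bp against 902 bp for all peaks. They made up 7.33% of the summed width of all peaks. As a share of regions, they lay at genes more often than other peaks. A total of 422 (59.8%) lay within 1 kb of an annotated transcript start, 156 (22.1%) overlapped a gene elsewhere and 128 (18.1%) were intergenic. Over all peaks these shares were 35.3%, 32.5% and 32.2%. A start of a protein-coding gene stood inside 353 broad regions (50%) and 28.6% of all peaks, and 48 broad regions held the starts of 2 or more coding genes. Longer regions meet more starts by length alone. Counting only the outermost start of each coding gene, broad regions held 1.11 starts per 10 kb. Peaks of 1001 to 2000 bp held 3.24, those of 2001 to 2999 bp 1.98 and all peaks 2.48. The share at starts had already risen to 50.6% at widths of 1001 to 2000 bp and was 54.3% at 2001 to 2999 bp. Moving the width limit to 2500 or 4000 bp gave 59.2% and 62.0%.

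**Figure D1:**
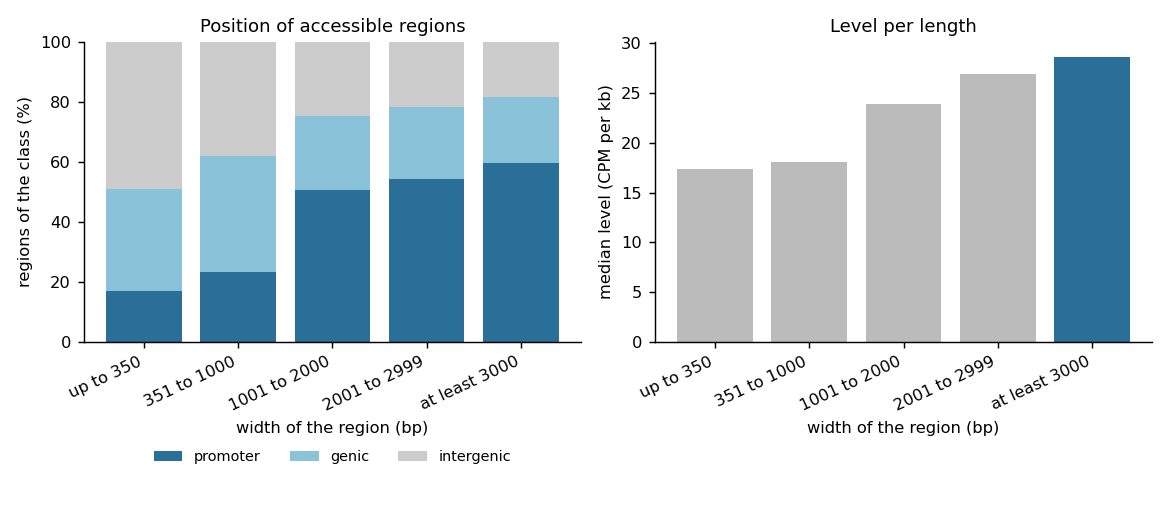
Left, the share of accessible regions at promoters (within 1 kb of a transcript start), elsewhere in genes and between genes, by width class. Right, the median level of each class in CPM per kb. Promoter shares, not corrected for width, climb from 23.4% at 351 to 1000 bp to 59.8% in the broad regions (dark bar at right), and the level per kb from 18.1 to 28.7.

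Broad regions also reached the far ends of genes. The 3′ end of a protein-coding gene lay inside 96 of them (13.6%), compared with 1.39% of all peaks. A start and a 3′ end of coding genes, not necessarily of the same gene, both lay inside 61 (8.64%, all peaks 0.809%). Longer regions meet more gene ends by length alone. Per 10 kb of region, the broad ones held 0.416 such ends, those of 2001 to 2999 bp 0.224 and all peaks 0.140. Among the sarcomere genes, the broad regions of Acta1, Myh4, Mylk2, Tcap, Tnnc2 and Tpm2 contained the gene's 3′ end, and among the genes of metabolism those of Gys1, Mb, Pgam2 and Pkm did.

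In level, the broad regions were strong but not extreme. Levels are given as CPM, counts scaled by library size to a common total, after TMM adjustment, which leaves out the most different peaks when libraries are matched, and are divided by width where regions are compared. The median broad region held 28.7 CPM per kb against 20.1 over all peaks and 18.1 in peaks of 351 to 1000 bp. The middle of the range was narrow, with quartiles of 21.1 and 36.8 CPM per kb. The next peak was closer than elsewhere, at a median of 7871 bp against 16318 bp. Broad regions were not the most CpG-rich class. Their median was 22.6 CpG per kb, compared with 39.5 in peaks of 1001 to 2000 bp and 18.4 over all. The median coefficient of variation was 12.0% among LacZ-shRNA and 6.74% among Yap-shRNA replicates, against 17.2% and 11.1% over all peaks. Counting noise weighs less at higher counts, and the broad regions held a median of 105 CPM against 15.1 over all peaks. The median fitted dispersion, the spread beyond counting noise, was 0.0107 in broad regions and 0.0128 over all peaks. It was 0.00918 at widths of 1001 to 2000 bp and 0.00937 at 2001 to 2999 bp, so smaller than in the broad regions.

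Accessibility was not even along a broad region. In 48 of them, all transcript starts in and around the region belonged to 1 gene and the windows of 1 kb to each side of those starts lay wholly inside, so the core and the rest could be compared. These windows covered a median of 60.2% of the width and held a median of 75.1% of the counts, with a range of 22.3% to 98.5%. The core had a larger share of counts than of width in 41 of the 48, and its counts per base were a median of 1.92 times those of the rest. Medians of the share were 76.3% in LacZ-shRNA and 74.3% in Yap-shRNA. At Des, the gene of the intermediate filament desmin, the windows held 88.6%, 89.2% and 91.4% of the counts in the LacZ-shRNA libraries and 89.5%, 88.0% and 88.1% in the Yap-shRNA libraries, so the groups overlapped. In 9 of the 48 (18.8%) the share was lower in every Yap-shRNA library than in every LacZ-shRNA library, and in 0 it was higher throughout, against 17.6% and 1.18% of all 85 peaks for which such windows could be set. The 9 lay at Zbtb16, Carmn, Esrra, Tubb4b, Dag1, Asb10, Fem1a, Eef1a2 and Gm44127, named after their values were seen. At Dag1, which encodes dystroglycan, the share was 84.2%, 83.4% and 84.0% in LacZ-shRNA and 82.3%, 80.8% and 80.8% in Yap-shRNA, and at Carmn it was 69.4%, 69.3% and 70.5% against 66.5%, 63.1% and 62.6%. At Eef1a2 it was 57.6%, 57.2% and 57.1% in LacZ-shRNA and 57.01%, 53.4% and 54.7% in Yap-shRNA.

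Motif letters were counted per kb of region, and a match describes the sequence only. At promoters, the broad regions held fewer of some motifs of housekeeping promoters per kb than all promoter peaks did, and wider regions also reach further from the start. There were 1.57 against 2.74 matches per kb for SP and KLF factors, 0.035 against 0.090 for ETS factors and 0.022 against 0.059 for NRF1 (GCGCATGCG). In the 250 bases before the start, the SP and KLF shares given above were close, at 60.6% in broad regions and 63.1% in any peak, and the ETS letters stood in 2.11% and 6.56%. They held more of the E-box, at 0.799 against 0.639 per kb, of the MEF2 letters, at 0.250 against 0.185, of the steroid receptor letters, at 0.250 against 0.186, and of the TEAD letters, at 0.127 against 0.098. Away from promoters, among regions repeat-masked over less than 50%, the E-box stood at 0.750 against 0.915 per kb. The MEF2 letters stood at 0.369 against 0.415. Only the steroid receptor and TEAD letters among these 4 were again denser in the broad regions, at 0.560 against 0.469 and 0.173 against 0.146. Their centres did not show this excess. The TEAD letters stood in the centres of 1 of 144 broad regions (0.694%), against 478 of all 12372 (3.86%). For the steroid receptor letters the centre shares were 10.4% against 10.9%. For the E-box they were 18.8% against 25.3%, and for the MEF2 letters 11.8% against 10.9%.

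By sequence, 3 kinds of broad region were set apart. Most, 551, lay on assembled chromosomes and were repeat-masked over less than 50% of their bases. A further 123 were masked over at least 50%, 85 of them over at least 90%, and 32 lay on unplaced scaffolds, where 27.8% of the 115 peaks were broad. Their levels differed widely. The 551 had a median of 30.1 CPM per kb, the repeat-masked regions 3.34 and the scaffold regions 27.1, yet 9 of the 10 highest regions per kb were repeat-masked or on scaffolds. Reads of near-identical copies cannot be assigned with certainty, and the study names a mapping quality limit for reads counted over whole genes without saying whether it held for the peaks, so levels in the last pair of kinds are uncertain. The 551 are not free of this, since they include the ribosomal region and the mitochondrial-like region described below.

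The highest level of all was at chr17:39842720-39849160, over Gm42418, Gm26917, CT010467.1 and AY036118. Gm42418 is the RefSeq locus Rn18s-rs5, a copy of the 18S ribosomal RNA gene. It held 7408, 9551 and 8097 CPM in the LacZ-shRNA libraries and 9356, 8895 and 7490.2 CPM in the Yap-shRNA libraries, or 1314 CPM per kb, and the groups overlapped with a log2 fold change of 0.04 (SE 0.42, adjusted p 0.994 by edgeR). The next 3 were repeat-masked, at 2700054A10Rik (chr17:13549921-13553935) with 859 CPM per kb, at Gm21738 (chr14:19415441-19419830) with 715 and at chr18:3003999-3007207 with 165. The fifth, at chr4:3078441-3087288, was also the widest region, with 132 CPM per kb. In each of these 4, the LacZ-shRNA replicates 1 and 2 lay above every other library. At Gm21738 they held 4451 and 4115 CPM, LacZ-shRNA replicate 3 held 2691 CPM, and the Yap-shRNA libraries held 2419.8, 2235 and 2925 CPM.

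After the chromosome 4 region, the widest were at Tmem267 (chr13:119595451-119603727, 8277 bp), at chr18:82163101-82171031 (7931 bp), at AW822073 (chr10:58221126-58228895, 7770 bp) and at Tlcd2 and Mir22hg, the host of miR-22 (chr11:75457854-75465523, 7670 bp). Of these 4, the regions at AW822073 and Mir22hg were repeat-masked over less than 50%. The Mir22hg region held 338, 372 and 396 CPM in the LacZ-shRNA libraries and 370.4, 339.9 and 348 CPM in the Yap-shRNA libraries, with overlapping groups. The regions just inside the limit, both 3000 bp wide, were an intergenic one at chr17:45846856-45849855 and one at the start of Ptp4a3 (chr15:73745800-73748799), with 39.5 and 41.2 CPM per kb. Just outside it were regions at Adcy2 (2996 bp, 29.5 CPM per kb) and in Ptpn4 (2995 bp, 1.21 CPM per kb, repeat-masked throughout).

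Broad regions were counted on 17 gene lists. Of all 12817 protein-coding genes with a peak, 571 (4.46%) overlapped a broad region. Among genes of the sarcomere and contraction this held for 15 of 28 with a peak (53.6%), among those of calcium handling and excitation for 5 of 16 (31.2%), among those of muscle metabolism for 6 of 20 (30%) and among transcription factors of muscle for 11 of 34 (32.4%). Genes of glucocorticoid response, Foxo factors and atrophy had 10 of 24 (41.7%), immediate early and AP-1 genes 6 of 22 (27.3%) and clock genes 5 of 19 (26.3%). Genes of fatty acid oxidation and the TCA cycle had 3 of 32 (9.38%). No broad region was found at the 31 Yap pathway and target genes with a peak, at the 14 Hox genes with a peak, or at any marker gene of leukocytes, fibroblasts, endothelial cells, satellite cells or smooth muscle. The lists overlap, and long or strongly transcribed genes offer more room for a broad region, so the shares are a description.

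**Figure D2:**
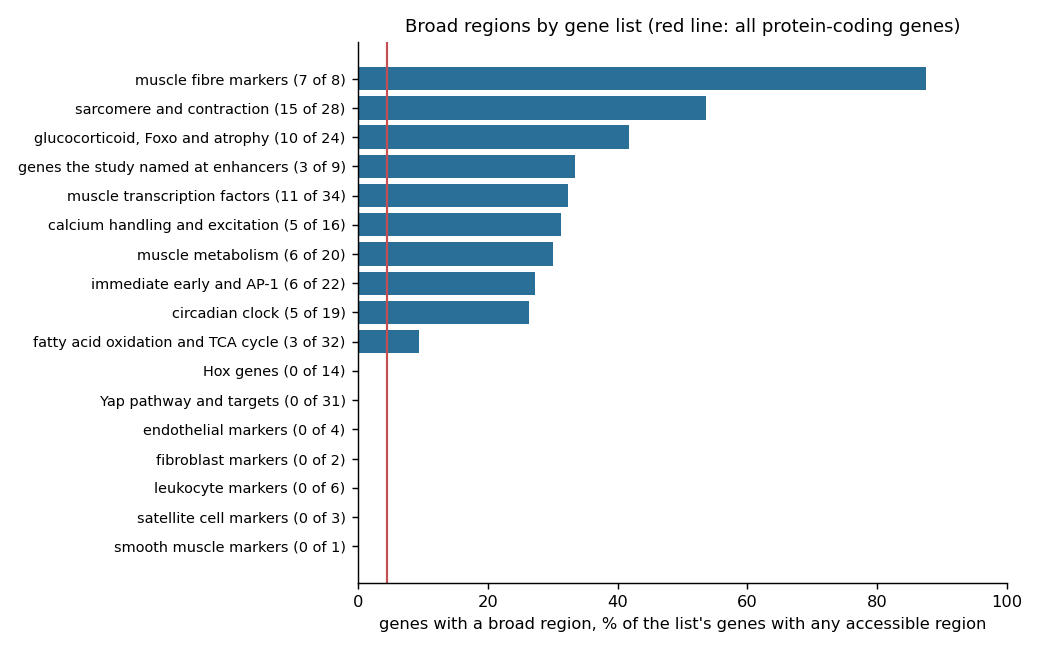
Share of each list's genes with any accessible region that overlapped a broad region (bars, in %), with the counts beside the list names. The red line at 4.46% is the share over all protein-coding genes. Lists of muscle fibre and sarcomere genes lead with 87.5% and 53.6%, and 7 lists stand at 0.

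Some genes held more than 1 broad region. This was so for 39 of the 571 protein-coding genes, 6 of them on the lists: Tpm1 and Tpm2, which encode tropomyosins, Ldb3, a protein of the Z-disc, Klf15 and Zbtb16, transcription factors induced by glucocorticoids, and Esrra, an oestrogen-related receptor of mitochondrial gene control. The most, 10, overlapped Gm20388, a long gene model that spans other genes.

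The comparison asked which broad regions differed in accessibility after Yap knockdown. In pooled nuclei, fewer nuclei of a type and lower accessibility per nucleus cannot be told apart. In edgeR's quasi-likelihood test across all peaks, 2 broad regions were higher and 5 lower in Yap-shRNA at an adjusted p under 0.05. That is 0.283% and 0.708% of the broad regions, against 0.0471% and 0.571% of all peaks tested, and 0.992% against 0.618% in either direction. Single libraries weighed on this count, which was 38 (35 lower, all peaks 1.24%) without LacZ-shRNA replicate 3. It was 1 (all peaks 0.26%) without Yap-shRNA replicate 1 and 2 (all peaks 0.26%) without Yap-shRNA replicate 2. At an unadjusted p under 0.05 there were 27 higher and 70 lower, or 3.82% and 9.92%, where all peaks gave 3.59% and 5.31%. In 100 broad regions (14.2%) all replicates of a group lay above all of the other, 43 higher and 57 lower in Yap-shRNA, against 13.3% of all peaks (6.55% higher, 6.76% lower). The counts lean on the scaling: with library size alone, which moves the all-peak median from -0.00 to 0.14 on the log2 scale, the unadjusted counts became 80 higher and 14 lower (11.3% and 1.98%, all peaks 11.4% and 1.93%). With an offset fitted on abundance they were 86 higher and 28 lower (12.2% and 3.97%, all peaks 4.21% and 5.74%), so the lean toward lower values turned round.

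A region in an intergenic stretch of chromosome 2 (chr2:181142942-181146136, 3195 bp) was higher. It held 50.1, 66.2 and 53.8 CPM in the LacZ-shRNA libraries and 96.01, 85.0 and 76.9 CPM in the Yap-shRNA libraries. Every Yap-shRNA replicate was above every LacZ-shRNA replicate, with means of 56.7 ± 8.46 and 86.0 ± 9.58 CPM (SD, n = 3) and a log2 fold change of 0.62 (SE 0.13, adjusted p 0.0079 by edgeR). The 1 other peak within 20 kb was a broad region at the start of Eef1a2, the elongation factor of adult muscle, with a log2 fold change of 0.13 (SE 0.15, adjusted p 0.894 by edgeR). When LacZ-shRNA replicate 1 or Yap-shRNA replicate 1 was left out, the change was 0.55 and 0.53 and the edgeR adjusted p 0.0517 and 0.113.

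The other higher region covered the last part of Trim63 and the bases past it (chr4:134327459-134331447, 3989 bp). Trim63 encodes MuRF1, a ubiquitin ligase that marks sarcomere proteins for breakdown in atrophy, and 2171 bp of the region lay inside the gene, with 1818 bp past its 3′ end. The level was 66.8, 86.6 and 96.3 CPM in the LacZ-shRNA libraries and 119, 117 and 134 CPM in the Yap-shRNA libraries. The groups were apart, and the log2 fold change was 0.56 (SE 0.14, adjusted p 0.0340 by edgeR). At the start of Trim63, a peak of 2073 bp had a log2 fold change of 0.04 (SE 0.12, adjusted p 0.972 by edgeR). This call was lost when any library but LacZ-shRNA replicate 3 was left out, with edgeR adjusted p of 0.181, 0.0869, 0.0933, 0.109 and 0.211 without LacZ-shRNA replicates 1 and 2 and Yap-shRNA replicates 1, 2 and 3.

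Lower was a region that began 98 bp inside the 3′ end of Arrdc2 and ran 3990 bp past it (chr8:70831139-70835226). Arrdc2 encodes an arrestin-domain protein, and the gene is 1 of 9 that the study named at enhancers, a list chosen on these samples and so not independent evidence of direction. The LacZ-shRNA libraries held 238, 319 and 304 CPM and the Yap-shRNA replicates 149.8, 179 and 216 CPM, again without overlap. The log2 fold change was -0.66 (SE 0.16, adjusted p 0.0276 by edgeR). Both other peaks within 20 kb, at the Arrdc2 start and further past its 3′ end, gave log2 fold changes of -0.42 and -0.44, with edgeR adjusted p of 0.225 and 0.121. Without LacZ-shRNA replicate 2, Yap-shRNA replicate 1 or Yap-shRNA replicate 2 the adjusted p of the broad region in edgeR was 0.149, 0.279 and 0.240, and with library size alone it was 0.118.

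The largest change among the broad regions was at chr1:24611235-24616833 (5599 bp), over 7 predicted genes including Gm28439 and Gm10925. Of its bases, 4654 matched the mitochondrial genome at 99.9% identity, so reads from mitochondria and from this nuclear copy cannot be told apart. Levels were 110.3, 90.02 and 171 CPM in the LacZ-shRNA libraries and 47.8, 51.8 and 43.7 CPM in the Yap-shRNA libraries. Every LacZ-shRNA replicate was above every Yap-shRNA replicate, and they varied widely among themselves, with means of 124 ± 42.0 and 47.8 ± 4.08 CPM (SD, n = 3). The log2 fold change was -1.40 (SE 0.15, adjusted p 1.32e-07 by edgeR), and the region was called without each library in turn.

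The 3 remaining calls were lower regions of repeated or unplaced sequence. A region of chromosome 10 (chr10:56250356-56254234), whose centre is printed above, was repeat-masked over 99.5% and held 116, 139 and 88.5 CPM in the LacZ-shRNA libraries and 68.9, 65.7 and 82.7 CPM in the Yap-shRNA libraries, a log2 fold change of -0.64 (SE 0.14, adjusted p 0.0114 by edgeR). On scaffold GL456389.1 (9576 to 14043) the LacZ-shRNA libraries held 389, 316 and 285 CPM and the Yap-shRNA replicates 202, 195 and 229 CPM, a change of -0.66 (SE 0.16, adjusted p 0.0269 by edgeR). Inside Ndst3 (chr3:123676529-123679740), with no exon in the region and 96.2% masked, levels were 56.4, 33.5 and 36.4 CPM against 24.9, 28.1 and 30.6 CPM, a change of -0.60 (SE 0.15, adjusted p 0.0414 by edgeR). In all 3 the groups were apart, and LacZ-shRNA replicate 3 was nearer to the Yap-shRNA replicates than LacZ-shRNA replicate 1 was. With library size alone the edgeR adjusted p of the 3 was 0.0881, 0.127 and 0.147, and each was lost without Yap-shRNA replicate 1 (0.106, 0.169 and 0.243) or Yap-shRNA replicate 2 (0.164, 0.370 and 0.129). The chromosome 10 region was also lost without LacZ-shRNA replicate 2 (0.149), the scaffold region without LacZ-shRNA replicate 1 or 2 (0.112 and 0.0646) and the Ndst3 region without LacZ-shRNA replicate 1 (0.413).

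**Figure D3:**
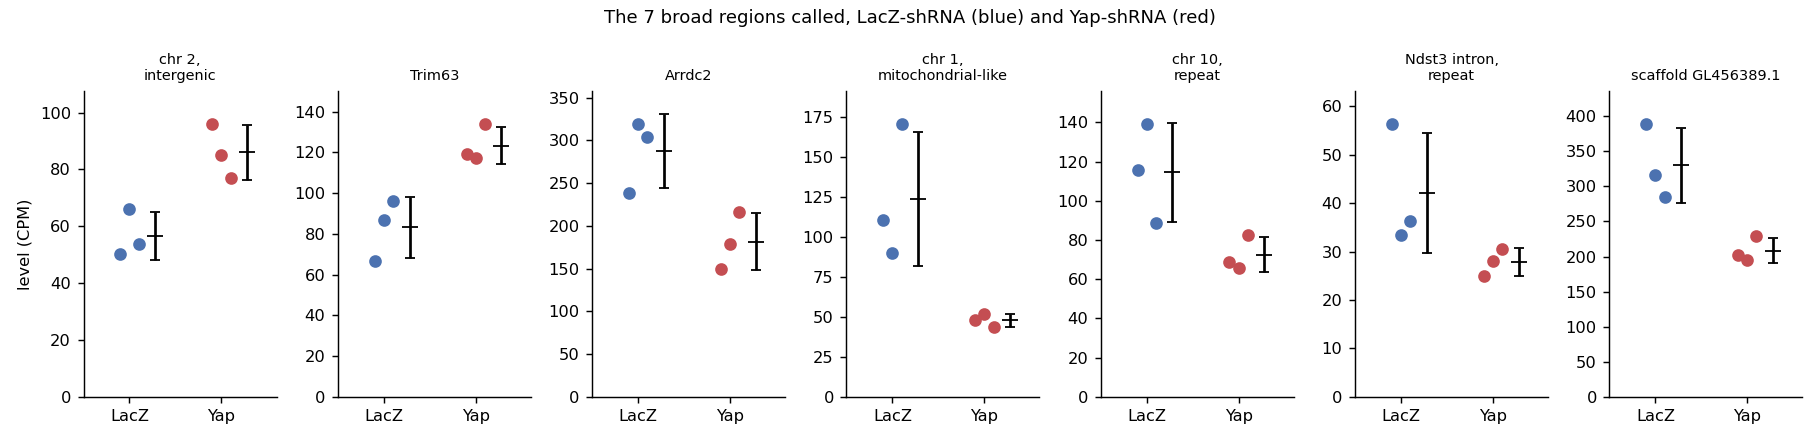
Level in CPM (vertical axes from 0, 1 scale per panel) of the 7 broad regions called, with LacZ-shRNA replicates in blue and Yap-shRNA replicates in red in the order 1 to 3. Black marks are mean and SD (n = 3). The groups are apart in all 7, higher in Yap-shRNA in the 2 panels at left.

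Fold changes leaned to 1 side on the scaffolds. There, 31 of 32 log2 fold changes were negative, with a median of -0.36, and 18 had an unadjusted p under 0.05, yet only 1 of the 32 had groups that were apart. Among all 115 scaffold peaks the median was -0.33, 104 were negative, 46 had an unadjusted p under 0.05 and 5 had groups that were apart. The repeat-masked kind had a median of -0.02 and the remaining 551 also -0.02, with 309 of the 551 negative. The 551 held 2 called regions higher and 2 lower, with 39 apart higher and 50 apart lower. The 2 lower calls were those at Arrdc2 and at the mitochondrial-like region of chromosome 1. All 24623 peaks of the same kind held 15 called higher and 160 lower, with 1897 apart higher and 1877 apart lower.

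**Figure D4:**
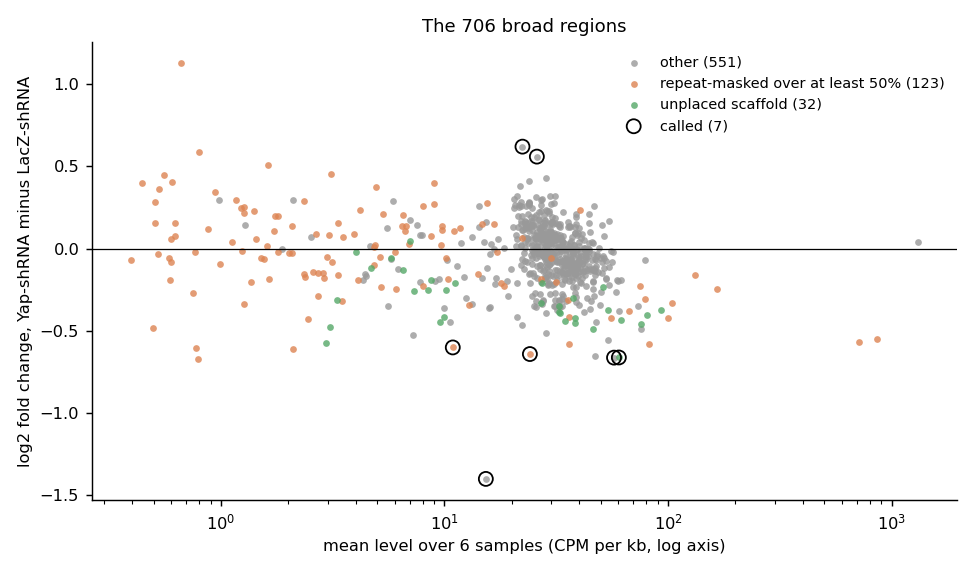
Log2 fold change (Yap-shRNA minus LacZ-shRNA) of the 706 broad regions against the mean level over 6 samples in CPM per kb (log axis), coloured by kind, with the 7 called regions circled. Scaffold regions (green) lie below 0 in 31 of 32 cases, and 71.2% of all regions lie within 0.2 of 0.

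Over all 706, the log2 fold changes had a median of -0.03, compared with -0.00 over all peaks, and 71.2% were within 0.2 of 0 (60.2% of all peaks). They were negative in 406 and positive in 300, and 22 reached a size of 0.5. The sign of the median depended on the scaling. The median was 0.11 with library size alone, where that of all peaks was 0.14, and 0.05 with an offset fitted on abundance, where that of all peaks was 0.00. Relative to all peaks it was thus lower by TMM and by library size, and higher by the abundance offset.

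As a share of each library's peak counts, the broad regions took 9.43%, 9.48% and 9.57% in the LacZ-shRNA libraries and 10.1%, 9.80% and 9.45% in the Yap-shRNA libraries. The means were 9.50 ± 0.0682% and 9.77 ± 0.304% (SD, n = 3) and the groups overlapped. The kinds went different ways. The 551 regions of the first kind took 7.05%, 7.35% and 8.06% against 8.35%, 8.20% and 7.63%. The repeat-masked regions took 1.85%, 1.72% and 1.18% against 1.34%, 1.25% and 1.45%, and those on scaffolds 0.543%, 0.415% and 0.334% against 0.365%, 0.348% and 0.376%. In each kind LacZ-shRNA replicates 1 and 2 lay outside the range of the other 4 libraries. The latter were the shallowest libraries, with 3824989 and 2588520 peak counts against 5884288 to 6871176 in the other 4, and the part of depth in these shares was not tested.

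**Figure D5:**
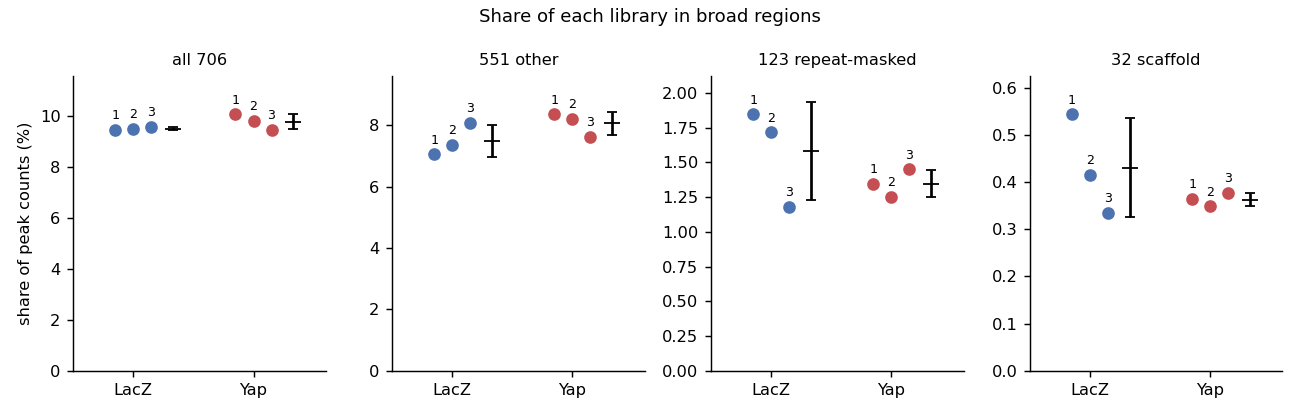
Share of each library's peak counts (%, axes from 0) in all broad regions and in the 3 kinds, for LacZ-shRNA (blue) and Yap-shRNA (red) replicates numbered 1 to 3. Black marks are mean and SD (n = 3). LacZ-shRNA replicates 1 and 2 lie above the other libraries in the repeat-masked and scaffold panels and below them among the 551 others.

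Among the sarcomere genes, the 18 broad regions had a median log2 fold change of 0.01, none was called, 3 had an unadjusted p under 0.05 and higher levels (16.7%, all peaks 3.59%), and 0 a lower one. The abundance offset gave a median of 0.18, where that of all peaks was 0.00, with 14 of 18 positive. With this offset 7 were higher at an unadjusted p under 0.05 (38.9%, broad regions 12.2%, all peaks 4.21%). DESeq2 gave 4 higher and 2 lower (22.2% and 11.1%, all peaks 1.67% and 3.55%). The highest by level was at Tcap, whose product telethonin caps titin at the Z-disc (chr11:98382914-98389285). It held 425, 556 and 597 CPM in the LacZ-shRNA libraries and 429, 404 and 405 CPM in the Yap-shRNA libraries, a log2 fold change of -0.35 (SE 0.18, adjusted p 0.570 by edgeR), and LacZ-shRNA replicate 1 lay among the Yap-shRNA replicates. Myh4, the fast myosin heavy chain of type IIB fibres, had a region across its 3′ end (chr11:67258140-67264616) with 287, 349 and 359 CPM in the LacZ-shRNA libraries and 384, 359 and 376 CPM in the Yap-shRNA libraries. These groups were barely apart, with both closest libraries at 359 CPM, and the log2 fold change was 0.17 (SE 0.16, adjusted p 0.856 by edgeR). At Mylk2, the myosin light chain kinase of skeletal muscle, levels were 287, 368 and 319 CPM against 249, 319 and 368 CPM, with the LacZ-shRNA libraries first here and wherever 3 values are set against 3. The region that holds all of Acta1 (chr8:123890371-123897316, 6946 bp) had 257, 306 and 322 CPM against 354, 276 and 256 CPM, and its means of 295 CPM in each group differed by far less than the spread of the replicates. Of both regions at Tpm2, chosen here after their values were seen, the wider held 293 CPM in Yap-shRNA and 294 CPM in LacZ-shRNA, and the other (chr4:43511603-43516350) held 110.1, 118 and 116 CPM against 175, 156 and 131 CPM, a log2 fold change of 0.43 (SE 0.14, adjusted p 0.190 by edgeR).

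None of the 5 regions of calcium handling genes was called, and their median log2 fold change was 0.02 (0.15 with the abundance offset). Ryr1, the calcium release channel of the sarcoplasmic reticulum, held 278, 283 and 302 CPM against 312, 255 and 271 CPM at its start (chr7:29122425-29127933). The buffer protein gene Pvalb had log2 fold change 0.14 (SE 0.14, adjusted p 0.859 by edgeR) and Casq1, which stores calcium, -0.05 (SE 0.14, adjusted p 0.968 by edgeR). Metabolic genes had 6 regions, none called, with a median of 0.04 and 4 of 6 positive. With the abundance offset the median was 0.23, all 6 were positive and 3 had an unadjusted p under 0.05 (50%, against 12.2% of broad regions and 4.21% of all peaks that were higher). Slc2a4, the insulin-regulated glucose transporter, held 248, 290.4 and 286 CPM against 299.7, 268 and 255 CPM, so the groups overlapped. The glycolytic genes Eno3 and Pgam2 had means of 256 and 257 CPM in LacZ-shRNA and 272 and 258 CPM in Yap-shRNA, with SDs of 25.1, 16.7, 42.4 and 41.4 CPM.

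Of the 12 regions at muscle transcription factors, none was called and the median was 0.02. Myod1, the myogenic regulator, held 162, 177 and 187 CPM against 195, 178 and 182 CPM in a region that covers the whole gene (chr7:46375707-46381040). Sox6, a repressor of slow fibre genes, had means of 184 ± 20.4 and 182 ± 30.8 CPM (SD, n = 3). Bhlhe40, a repressor that also acts in the clock, was an exception in that its groups were apart, with 206, 219.5 and 224 CPM against 198, 165 and 148 CPM, and its log2 fold change of -0.35 (SE 0.14, adjusted p 0.414 by edgeR) did not pass. The Bhlhe40 region held a G or C run of 22 bases, a class of region left out in an alternative given at the end.

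Regions of the glucocorticoid, Foxo and atrophy list had a median log2 fold change of -0.23 over 12 regions, 10 of them negative. The 1 call was the higher region at Trim63. Unadjusted p values under 0.05 were found for 5 regions with lower levels, at Tsc22d3, Ddit4, Klf15, Foxo1 and Zbtb16, named here after their values were seen. That is 41.7% of the 12, against 9.92% of the broad regions and 5.31% of all peaks. With library size alone 0 had a lower level at this p (all peaks 1.93%). With the abundance offset 4 did (33.3%, broad regions 3.97%, all peaks 5.74%). Tsc22d3, which encodes the glucocorticoid-induced leucine zipper, had 69.8, 75.6 and 84.0 CPM in the LacZ-shRNA libraries and 51.0, 58.4 and 63.7 CPM in the Yap-shRNA libraries at its start (chrX:140540575-140543763). Its groups were apart and its log2 fold change was -0.42 (SE 0.13, adjusted p 0.138 by edgeR). Ddit4, an inhibitor of mTOR signalling, held 99.7, 122 and 140.1 CPM against 85.1, 91.4 and 109 CPM, with overlapping groups and a log2 fold change of -0.35 (SE 0.14, adjusted p 0.359 by edgeR). By level the leading members were Dusp1, a phosphatase of MAP kinases, Irs2, an adaptor of the insulin receptor, and the start of Zbtb16, with log2 fold changes of -0.12, 0.16 and -0.19 and edgeR adjusted p of 0.903, 0.833 and 0.756. With library size alone the list's median was -0.09, where the median of all peaks was 0.14, and 9 of 12 were negative. Of the 9 genes the study named at enhancers, Arrdc2, Sgk1 and Nr3c1 had a broad region. Sgk1, a kinase induced by glucocorticoids, held 139, 174 and 182 CPM against 139, 133 and 141 CPM (log2 fold change -0.26, SE 0.14, adjusted p 0.597 by edgeR). Nr3c1, the glucocorticoid receptor gene, held 133, 135 and 156 CPM against 114, 116 and 122 CPM, which were apart, with a change of -0.27 (SE 0.13, adjusted p 0.542 by edgeR). The Nr3c1 region held a G or C run of 15 bases and is of the same class as that at Bhlhe40.

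The clock and immediate early lists had 5 and 6 broad regions with medians of -0.19 and -0.08, and none was called. Tef, an output factor of the clock, held 194, 201 and 224 CPM against 195, 174 and 173 CPM, and Nr1d1, the repressor Rev-erb alpha, had means of 171 ± 9.19 and 173 ± 13.4 CPM (SD, n = 3). Klf10, Jun and Jund, the leading members of the immediate early and AP-1 list by level, had log2 fold changes of -0.08, -0.16 and -0.13. Their edgeR adjusted p were 0.946, 0.840 and 0.873, and in all 3 the groups overlapped. The 3 regions at genes of fatty acid oxidation and the TCA cycle lay at Sdhb, a subunit of succinate dehydrogenase, Acsl1, which activates fatty acids, and Cs, the citrate synthase gene. They changed by 0.10, 0.08 and 0.04 with edgeR adjusted p of 0.916, 0.934 and 0.975, each with overlapping groups.

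The deposited windows around transcript starts counted the same libraries within bounds that peak width did not set. Their genes were still chosen by the width rule, and their reads are shared with the peaks. Genes that start in broad regions had 486 windows, of which 0 passed the threshold in edgeR, against 0.0223% of all windows tested (0.00203% higher, 0.0203% lower), with 2 in DESeq2 and 3 in the likelihood-ratio test. At an unadjusted p under 0.05, 3 were higher and 47 lower, or 0.617% and 9.67%, where all windows gave 1.9% and 3.01%. With library size alone the split was 14 higher and 32 lower, or 2.88% and 6.58%, against 4.67% and 1.35% of all windows. Groups were apart in 31 windows (6.38%), 9 higher and 22 lower, below the 10.1% of all windows (5.31% higher, 4.79% lower). The count past the threshold rose to 36, all lower, without LacZ-shRNA replicate 1. The shares of all windows called in these other fits are not given here, so such counts cannot be called particular to broad regions. At the starts of Tcap and Ddit4 the window log2 fold changes were -0.48 (SE 0.15) and -0.47 (SE 0.15), with edgeR adjusted p of 0.946 for both. The Tcap window held 92.8, 158 and 147 CPM against 101, 91.8 and 91.6 CPM, so LacZ-shRNA replicate 1 again lay within the Yap-shRNA range. The Acta1 window held 61.3, 71.5 and 83.7 CPM against 78.7, 53.7 and 62.4 CPM, with overlapping groups. Windows of genes that share a region share reads and are not independent.

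Windows of marker genes of other cell types summed to less than those of muscle fibres. The 10 fibre markers summed to between 1375 and 1949 CPM in LacZ-shRNA and between 1491 and 1741 CPM in Yap-shRNA, or 166 CPM per gene, carried mostly by Ttn, Tnnt3 and Neb at 488, 289 and 256 CPM. The fibre marker Myh4 was at 59.6 CPM, close to Col1a1 of fibroblasts at 58.0 and above Erg of endothelium at 45.5 and Laptm5 of leukocytes at 41.7 CPM. The fibre marker Myh1, at 9.64 CPM, was below all of these. The 7 leukocyte markers with a window summed to 151 to 185 CPM and 181 to 195 CPM, the 6 fibroblast markers to 164 to 175 CPM and 172 to 215 CPM, the 6 endothelial markers to 143 to 158 CPM and 148 to 164 CPM, the 5 satellite cell markers to 98.2 to 111 CPM and 97.4 to 108 CPM and the 4 smooth muscle markers to 55.5 to 67.0 CPM and 56.1 to 62.3 CPM. None of these windows was called and none was at 0, with the lowest, that of Lum, at 5.91 CPM. The part of other cell types in the results was not tested.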

How the data were processed

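ATAC-seq was analysed in 3 LacZ-shRNA and 3 Yap-shRNA pools of PCM1+ nuclei. The authors mapped paired-end reads to GRCm38 with BWA 0.7.17, used SAMtools 1.8 to drop duplicates and MACS 1.4.2-1 for peaks, kept peaks found in at least 2 samples and counted reads with featureCounts 1.5.0. The deposited values are raw read counts per peak and per window of 1 kb around transcript starts, from which the authors had removed rows with a mean under 10. The replicates are pools of muscles, and p-values measure the spread between these pools.

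Here the counts were fitted over all 36097 peaks and all 49366 windows with edgeR 4.0.16 in R 4.3.3 (quasi-likelihood test, TMM factors, no covariate, Benjamini-Hochberg adjustment, threshold 0.05), and fold changes (log2, with standard error) have LacZ-shRNA as the base. Peaks were annotated with GENCODE M21 and sequence features read from the RefSeq genome GRCm38.p6. Repeat masking was taken from that genome, and mitochondrial matches from blastn 2.17.0 at an E-value of 1e-05. The unplaced scaffolds had no sequence features. The fit was tested on simulated data.

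Named regions are the called ones, the 5 widest, the 5 highest per kb, up to 3 per gene list by level and the 2 nearest each side of the width limit. The broad regions, gene lists and motifs were chosen with earlier results of these data known. Alternatives were DESeq2 1.42.0, the likelihood-ratio test, library size alone, offsets on abundance or GC content (loess span 0.3), a mean count of at least 50, a replicate block, other widths, and leaving out each sample. Leaving out scaffold and repeat-masked regions was chosen after seeing the data.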

Additional observations from a re-analysis of the deposited data

How the results depend on the processing

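The count of broad regions past the threshold, 7 (all peaks 0.618%), was 8 by DESeq2 (all peaks 0.327%) and 8 with the GC offset (all peaks 0.695%). It was 10 in the likelihood-ratio test (all peaks 1.05%) and 5 (4 higher, 1 lower, all peaks 0.634%) with library size alone. It was 3 with the abundance offset (all peaks 0.230%) and 3 among regions with a mean count of at least 50 (0.567% of all peaks kept). It was 4 without regions with G or C runs of at least 15 bases or mitochondrial matches (0.283% of all peaks kept). In the main fit, where all peaks gave 0.618%, it was 9 of 1301 regions at a width limit of 2500 bp and 3 of 266 at 4000 bp. Without scaffold and repeat-masked regions it was 4 of 551, against 175 of all 24623 peaks of that kind. At an adjusted p under 0.01 in edgeR it was 2, with no share over all peaks given. Leaving out 1 sample gave 1 to 38. The count was 1 without Yap-shRNA replicate 1 (all peaks 0.26%) and 2 without Yap-shRNA replicate 2 (all peaks 0.26%). Without LacZ-shRNA replicate 3 it was 38 (35 lower, all peaks 1.24%), of which 10 were repeat-masked, 14 on scaffolds and 7 among the calls made with all samples. The median log2 fold change of -0.03 became 0.0509 with the abundance offset and 0.11 with library size alone, and ran from -0.05 to -0.02 when a sample was left out. The 0 called windows became 2 by DESeq2, 3 in the likelihood-ratio test and 1 at a mean count of at least 50, and 0 to 36 with a sample left out, the highest without LacZ-shRNA replicate 1. No share over all windows stands beside these window counts. The share of counts in broad regions was higher in Yap-shRNA by 0.274 percentage points, by 0.635 at a limit of 2500 bp, by -0.000144 at 4000 bp and by 0.574 without scaffold and repeat-masked regions, and 0.131 to 0.433 with a sample left out. The share at promoters, 59.8%, was 59.2% and 62.0% at the other limits. The causes of these shifts were not tested.

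The labels do not say whether replicate numbers pair the samples, and the counts did not decide it. The correlations of deviations from the group means were 0.0155, -0.0931 and -0.139 for numbers 1, 2 and 3 over peaks and 0.191, -0.121 and 0.0923 over windows. A fit with the replicate block called 5 broad regions (all peaks 0.573%) and 1 window, whose share over all windows is not given. In this edgeR fit the regions at Arrdc2 and on scaffold GL456389.1 did not pass (adjusted p 0.0966 and 0.153). Of the called regions, only the mitochondrial-like one of chromosome 1 passed under every alternative that kept it. The tests of Arrdc2 (adjusted p 0.00142 to 0.279 over the alternatives) and Trim63 (0.00306 to 0.211) kept their direction in all of them. Depth limits the precision most in LacZ-shRNA replicate 2, with 2588520 peak counts.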
